A study of Mus musculus with 6 samples.

Results

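The troponin complex is the calcium switch of striated muscle. Troponin C binds calcium, troponin I holds back the interaction of actin with myosin until calcium is bound, and troponin T ties the complex to tropomyosin on the thin filament. Each subunit is encoded by separate genes named for the muscle in which they dominate in the adult, namely Tnnt3, Tnni2 and Tnnc2 in fast skeletal fibers, Tnnt1 and Tnni1 in slow skeletal fibers, Tnnt2 and Tnni3 in the heart, and Tnnc1 in both slow fibers and heart. Developing skeletal muscle also uses the cardiac troponin T gene Tnnt2 and the slow genes before the adult pattern is set. These 8 genes were chosen by gene name from the 55421 gene identifiers of the count table, and 8 of 8 passed the filter on low counts that left 18140 genes for testing.

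RNA-seq was performed on day 4 of differentiation in C2C12 cells, a line of mouse myoblasts in which myotube formation is induced by a low-serum medium. All cells carried a GFP reporter plasmid with CUG200 repeats behind the coding sequence, a cell model of myotonic dystrophy type 1 (DM1). Stable lines were selected with G418 or puromycin, by the resistance of each plasmid. The control group was stably transfected with an empty vector, which the paper does not name, and the miR-322/-503 group with pLL4.0 carrying the miR-322/-503 fragment. There were 3 libraries in each group, and whether a stable line came from 1 clone, and whether the libraries came from separate cultures, is not given in the sources used here. The methods of the study name biological and technical replicates for its assays in general but not which of these the libraries are, so each p-value measures only the spread between these libraries. The comparison asks how the troponin genes differed in DM1 myoblasts when both microRNAs were overexpressed. The libraries held 73532084 to 92157388 estimated counts, which corresponds to between 18383021 and 23039347 read pairs at 4 counts per pair. Markers of skeletal muscle were present in every library, with a summed level of 1424 to 1470 TPM (StringTie's level per transcript length) in the control group and 1651 to 1766 TPM in the miR-322/-503 group. The genes of the microRNA precursors do not serve as a check of the labels, because Mir322 was listed with 1, 7 and 2 counts in control replicates 1 to 3 and with 17, 0 and 3 counts in those with miR-322/-503, and Mir503 with 1, 1 and 2 counts against 6, 4 and 5, where 4 counts stand for 1 read pair.

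The overexpressed microRNAs are shown because they define the treatment. Both belong to the group that shares the AGCAGC core, and a microRNA binds mostly through its seed, bases 2 to 8, to the 3′ untranslated region (3′ UTR) of messages. The mature sequences from RefSeq on GRCm38.p6 are written 5′ to 3′ with the seed in capitals.
mmu-miR-322-5p (chrX:53054306-53054327, minus strand): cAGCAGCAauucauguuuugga
mmu-miR-503-5p (chrX:53054027-53054049, minus strand): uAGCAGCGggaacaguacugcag
The DNA letters that pair with these seeds are TGCTGCT for miR-322 and CGCTGCT for miR-503. In GENCODE M21, the longest annotated 3′ UTR of the 8 troponin genes ran from 63 bases in Tnni3 to 379 bases in Tnni1, and 0 of the 8 held either match. The 13416 tested genes with such an annotation had a median 3′ UTR of 1174 bases, of which 24.4% held the miR-322 match and 4.87% the miR-503 match. The 6 letters shared by both, GCTGCT, occurred in 45.2% of those genes and in 1 troponin gene, Tnnc2, from base 91 of its 3′ UTR, in the stretch cgggaaagGCTGCTcctttggg.

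Among the troponin genes, Tnni2, Tnnt3, Tnnc2, Tnni1 and Tnnt1 were expressed at a higher level in the miR-322/-503 group, and none was called lower. Among the genes called, the fast genes showed larger differences than the slow skeletal genes. Tnnc1, Tnnt2 and Tnni3 did not pass the test. Thus 5 of 8 genes were called higher at an adjusted p under 0.05 in edgeR's quasi-likelihood test, against 13.2% of all tested genes, and 0 of 8 were called lower, against 15.5%. No troponin gene was lower at an unadjusted p under 0.05 either, a threshold for which the share of all genes is not given here. DESeq2 called 6 higher and 0 lower, against 2704 higher and 2972 lower of the 21569 genes it gave an adjusted p. With a log2 fold change above 1 in addition, 2 of 8 genes remained, against 4.59% of all genes, and for a log2 fold change below -1 the background was 5.29%. The median log2 fold change was 0.62 over the troponin genes and -0.01 over all tested genes. In 6 of 8 genes every miR-322/-503 library lay above every control library, which was the case for 21.6% of all genes. In bulk RNA, fewer cells of a type and less RNA per cell cannot be told apart.

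**Figure D1:**
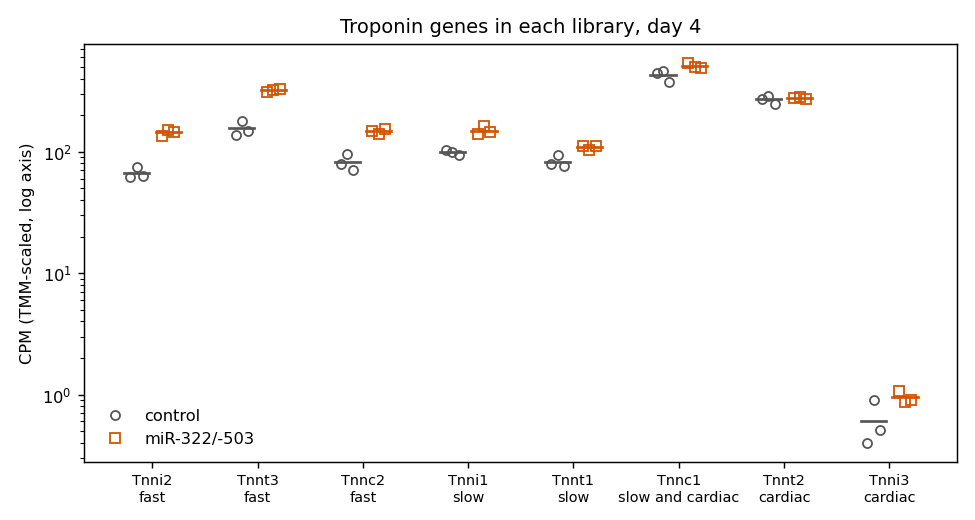
Level of each troponin gene in every library, in CPM on a log axis, with 3 control and 3 miR-322/-503 points per gene and a bar at each group mean. The groups are apart in 6 genes and overlap in Tnnt2 and Tnni3, and Tnni3 lies at or below 1.07 CPM in all libraries.

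Tnni2 encodes fast skeletal troponin I. Its level in CPM, counts scaled to the normalized library size, was 62.1, 74.1 and 62.6 in the control libraries and 136, 152 and 144 in the miR-322/-503 libraries. The groups were far apart, and the lowest miR-322/-503 library lay well above the highest control. The mean rose from 66.3 ± 6.79 to 144 ± 8.20 CPM (SD, n = 3 each), a log2 fold change of 1.12 with a standard error of 0.09 (adjusted p = 8.28e-05).

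Tnnt3 encodes fast skeletal troponin T. It was measured at 138, 180.4 and 147 CPM in the control libraries and at 307, 323 and 327 CPM in the miR-322/-503 libraries. Control replicate 2 was the highest control, and the groups did not overlap. The mean rose from 155 ± 22.3 to 319 ± 10.6 CPM (SD, n = 3 each), which is 1.04 ± 0.10 on the log2 scale (standard error) at an adjusted p of 0.000297.

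Tnnc2 encodes fast skeletal troponin C. Its values were 79.8, 94.9 and 70.1 CPM in the control libraries and 149, 140.3 and 153 CPM in the miR-322/-503 libraries. Again control replicate 2 was the highest control and the groups were apart. The mean rose from 81.6 ± 12.5 to 147 ± 6.28 CPM (SD, n = 3 each), and the log2 fold change was 0.85 ± 0.11 (standard error) at an adjusted p of 0.00101. Of the 800 exonic bases of Tnnc2, 592 (74%) lie within exons of Ube2c, a ubiquitin-conjugating enzyme gene on the opposite strand, and 254 of 725 runs of 75 bases in Tnnc2 messages also occur in Ube2c messages. Whether the libraries kept the strand is not given in the sources used here, so reads of both genes cannot be told apart over these bases. Ube2c itself fell, from 53.6 ± 3.95 to 38.1 ± 3.01 CPM (SD, n = 3 each).

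Tnni1 encodes slow skeletal troponin I, which is also the main troponin I of developing muscle. It was found at 104, 99.4 and 93.5 CPM in the control libraries and at 140.2, 162 and 144 CPM in the miR-322/-503 libraries. The groups did not overlap, and miR-322/-503 replicate 2 was the highest. The mean rose from 98.9 ± 5.11 to 149 ± 11.4 CPM (SD, n = 3 each), or by 0.59 on the log2 scale with a standard error of 0.07 and an adjusted p of 0.000942.

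Tnnt1 encodes slow skeletal troponin T. The control libraries had 78.7, 94.3 and 75.6 CPM and the miR-322/-503 libraries 112, 103 and 111 CPM. The lowest miR-322/-503 library was close to control replicate 2, so the gap between the groups was small. The mean rose from 82.8 ± 10.03 to 108 ± 5.02 CPM (SD, n = 3 each), a difference of 0.39 on the log2 scale with a standard error of 0.09 and an adjusted p of 0.0167. Without control replicate 1, miR-322/-503 replicate 1 or miR-322/-503 replicate 3 the adjusted p of Tnnt1 was 0.0594, 0.0503 and 0.0554.

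Tnnc1 encodes the troponin C of slow fibers and heart and was the most abundant troponin message. It had 445, 459 and 375 CPM in the control libraries and 537, 493 and 492 CPM in the miR-322/-503 libraries. The groups did not overlap, and the gap between them was small. The means were 426 ± 44.9 and 508 ± 25.7 CPM (SD, n = 3 each), and the log2 fold change of 0.25 (standard error 0.09) did not pass the test (adjusted p = 0.0691). DESeq2 gave 0.26 with an adjusted p of 0.0304, so the call for Tnnc1 depends on the test. Without control replicate 3 the log2 fold change was 0.17 (adjusted p = 0.126 in edgeR).

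Tnnt2 encodes cardiac troponin T, the form that embryonic skeletal muscle also makes. Its values were 270.3, 290.0 and 248 CPM in the control libraries and 275, 280.5 and 269.8 CPM in the miR-322/-503 libraries. The miR-322/-503 values all lay within the range of the controls. The means were 269.5 ± 20.9 and 275 ± 5.34 CPM (SD, n = 3 each), and the log2 fold change of 0.03 had a standard error of 0.07 and an adjusted p of 0.801.

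Tnni3 encodes cardiac troponin I and was barely detected. It received 31, 75 and 43 estimated counts in the control libraries and 102, 65 and 68 in the miR-322/-503 libraries, or 0.401, 0.908 and 0.509 CPM against 1.07, 0.867 and 0.904 CPM. The groups overlapped through control replicate 2. The log2 fold change of 0.64 had a standard error of 0.36 and did not pass the test (adjusted p = 0.232). It was 1.05 without control replicate 2 (adjusted p = 0.066) and 0.42 without control replicate 1 (adjusted p = 0.455), so its size rests on single control libraries. Control replicate 2 had the highest control value in 7 of the 8 troponin genes.

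**Figure D2:**
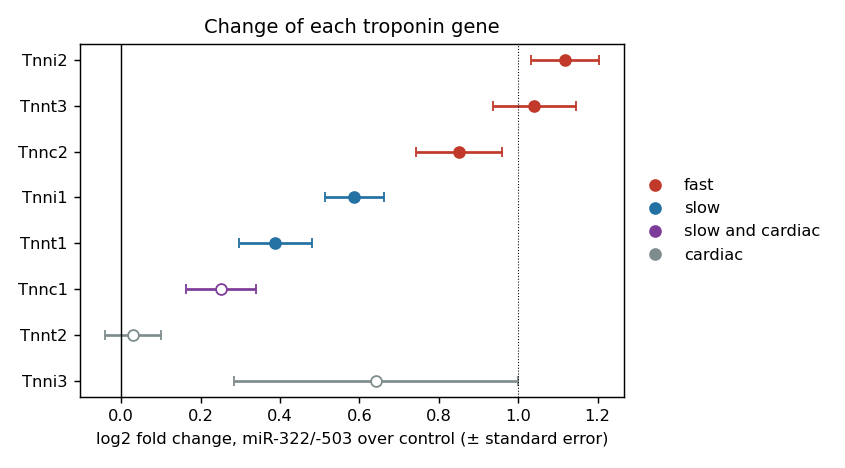
Log2 fold change of each troponin gene, miR-322/-503 over control, with its standard error from edgeR (3 libraries per group), colored by fast, slow and cardiac type. Filled points passed an adjusted p of 0.05, open points did not, and the dotted line marks a log2 fold change of 1, which Tnni2 and Tnnt3 exceed.

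TPM allows the genes to be ranked within a library. In the control group Tnnc1 was highest (1133 ± 122 TPM), followed by Tnnt2 (467 ± 41.5 TPM) and Tnnt3 (346 ± 51.6 TPM). Tnnc2, Tnni1, Tnnt1 and Tnni2 came next with means between 174 and 222 TPM, and each of these neighbors overlapped with the next in range. Tnni3 was last at 1.55 ± 0.761 TPM. In the miR-322/-503 group Tnnt3 (687 ± 5.03 TPM) had passed Tnnt2 (469 ± 28.9 TPM), and Tnni2 (393 ± 35.8 TPM) lay beside Tnnc2 (397 ± 12.7 TPM), with overlapping ranges, above Tnni1 (280.4 ± 25.7 TPM) and Tnnt1 (235 ± 11.2 TPM). Tnnc1 was again first (1332 ± 107 TPM) and Tnni3 last (2.43 ± 0.380 TPM).

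The make-up of each subunit differed between the groups, with a larger share of the fast gene in all 3 subunits. Tnnt3 made up 31.9, 36.2 and 36.0% of all troponin T TPM in the control libraries and 48.5, 49.1 and 50.7% in the miR-322/-503 libraries. Tnnt2 was the leading troponin T gene in the controls, with 49.7, 45.4 and 46.2%, and came second in the miR-322/-503 libraries, with 34.1, 34.6 and 32.4%. The share of Tnnt1 was 18.2 ± 0.322% and 16.9 ± 0.586% (SD, n = 3 each), so it was lower in the miR-322/-503 group although its level was higher. For troponin I, the share of Tnni2 was 44.8, 50.8 and 46.6% in the control libraries against 56.8, 58.5 and 59.2% with miR-322/-503, whereas that of Tnni1 was 52.2 ± 3.25% and 41.5 ± 1.21% (SD, n = 3 each). The cardiac gene Tnni3 stayed at or below 0.609% of troponin I in every library, and its share overlapped between the groups (exact two-sided permutation p = 0.8). For troponin C, Tnnc2 accounted for 15.6, 17.6 and 16.0% in the control libraries and for 22.2, 22.7 and 24.1% in the miR-322/-503 libraries. The share of the 3 fast genes in all troponin TPM was 27.3 ± 1.88% in the control group and 39.0 ± 1.39% in the miR-322/-503 group (SD, n = 3 each).

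The groups did not overlap in 8 of the 9 shares tested on TPM, all but that of Tnni3. An exact two-sided permutation test gave p = 0.1 for each of these, the smallest value that 3 against 3 libraries can give, and 0.1125 after Benjamini-Hochberg adjustment over the 9 shares. The design cannot reach a p under 0.05 with this test. The shares of one subunit sum to 100, so they are not independent of each other. The lower share of Tnnt1, a difference of -1.28 percentage points on TPM, depended on the scale, at -0.867 points on CPM, where the exact permutation p was 0.2, and -3.23 points on coverage per base.

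**Figure D3:**
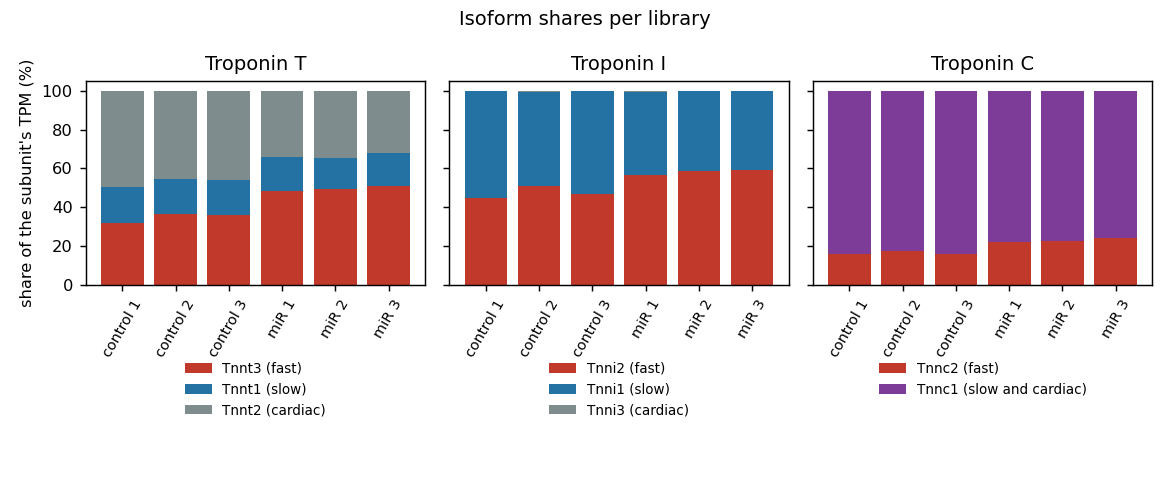
Share of each gene in the summed TPM of its subunit, in percent, for troponin T, I and C in each of the 3 control and 3 miR-322/-503 libraries (miR on the axis). The share of the fast gene is higher in every miR-322/-503 library than in any control library, from 31.9 to 36.2% against 48.5 to 50.7% for Tnnt3.

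Whether the members of a subunit changed by different amounts was tested on the log2 ratio of their TPM in each library. Tnnt3 against Tnnt2 moved most, from a mean log2 ratio of -0.44 to 0.55, a difference of 0.995 (0.896 to 1.05 on leaving out 1 library). Tnnt3 against Tnnt1 differed by 0.62, Tnni2 against Tnni1 by 0.63 and Tnnc2 against Tnnc1 by 0.61 on the log2 scale. Tnnt1 gained 0.38 on Tnnt2. Each of these 5 ratios was higher in 3 of 3 miR-322/-503 libraries than in any control, with an exact two-sided permutation p of 0.1, the smallest possible, and 0.14 adjusted over 7 ratios. The ratios to Tnni3 overlapped between the groups, with differences of 0.43 for Tnni2 (exact permutation p = 0.3, and 0.16 without control replicate 2 or 0.68 without control replicate 1) and -0.20 for Tnni1 (exact permutation p = 0.7).

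The summed level also differed between subunits. Troponin T summed to 951, 1114 and 917 TPM in the control libraries and to 1419, 1409 and 1345 TPM in the miR-322/-503 libraries. Troponin I had the lowest sum and the largest relative difference, with 375, 396 and 330.3 TPM in the controls and 658, 742 and 628 TPM in the miR-322/-503 libraries, a ratio of means of 1.84. Troponin C summed to 1415, 1469 and 1181 TPM against 1856, 1709 and 1622 TPM. The 3 sums did not overlap between the groups (exact two-sided permutation p = 0.1 each, the smallest possible, and 0.1 adjusted over 3 sums). The complex holds the subunits in equal numbers, while the ratio of troponin I to troponin T message was 0.356 to 0.394 in the controls and 0.464 to 0.527 in the miR-322/-503 libraries, and that of troponin C to troponin I was 3.58 to 3.78 and 2.30 to 2.82. The ratio of troponin C to troponin T overlapped between the groups, at 1.29 to 1.49 and 1.21 to 1.31.

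Of the troponin genes, 6 lie in pairs of a troponin I and a troponin T gene on the same strand (GRCm38, coordinates of the deposited tables). Tnni2 (chr7:142441808-142444410, plus strand) lies 54425 bases before Tnnt3 (chr7:142498836-142516009, plus strand), and both members of this fast pair rose, by 1.12 and 1.04 on the log2 scale. Tnni1 (chr1:135779434-135810989, plus strand) lies 25364 bases before Tnnt2 (chr1:135836354-135852260, plus strand), and here Tnni1 rose while Tnnt2 had a log2 fold change of 0.03. Tnni3 (chr7:4518305-4524229, minus strand) and Tnnt1 (chr7:4504570-4516382, minus strand) are 1922 bases apart, and of these Tnnt1 rose. Tnnc2 (chr2:164777161-164779967, minus strand) and Tnnc1 (chr14:31208312-31211729, plus strand) stand alone.

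Of the 40 tested genes that are not troponin genes and lie within 100 kb of one, 9 were higher and 6 lower, against 13.2% higher and 15.5% lower among all tested genes, with a median log2 fold change of -0.07. Around Tnni2, 3 of 6 tested neighbors were higher and none lower, all 3 of them also neighbors of Tnnt3. Around Tnnt3, 5 of 7 tested neighbors were higher and none lower in edgeR's test. An unadjusted p under 0.05 was found for 6 of these 7 and for 22 of all 40 neighbors. H19, an imprinted noncoding RNA, rose by 1.14 on the log2 scale, Lsp1, a leukocyte actin-binding protein gene, by 0.62, Syt8 by 0.94 and Prr33, which overlaps Tnnt3 on the opposite strand, by 0.67. The RNA Gm33148 had 4 to 7 counts in the controls and 71 to 125 counts in the miR-322/-503 libraries, at least 8.15-fold higher against a floor of 12 counts (3 read pairs) per library. Around Tnni1 and Tnnt2, the plakophilin gene Pkp1 (0.65) and Lad1 (1.07) rose, and Csrp1 (-0.65) and Phlda3 (-0.33) fell on the log2 scale. Gm36938 had 4 counts in each control library and 12 to 27 counts in the miR-322/-503 libraries, at least 1.58-fold higher. Around Tnni3 and Tnnt1, 0 of 4 tested neighbors were called by edgeR, 2 had an unadjusted p under 0.05 and DESeq2 called 1. Around Tnnc2, the lysosomal protease gene Ctsa rose (0.49) and Ube2c fell (-0.49), and 11 of 13 did not pass the test. Around Tnnc1, Sema3g (-1.999), Nt5dc2 (-0.92) and Bap1 (-0.22) fell and none of 8 rose.

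**Figure D4:**
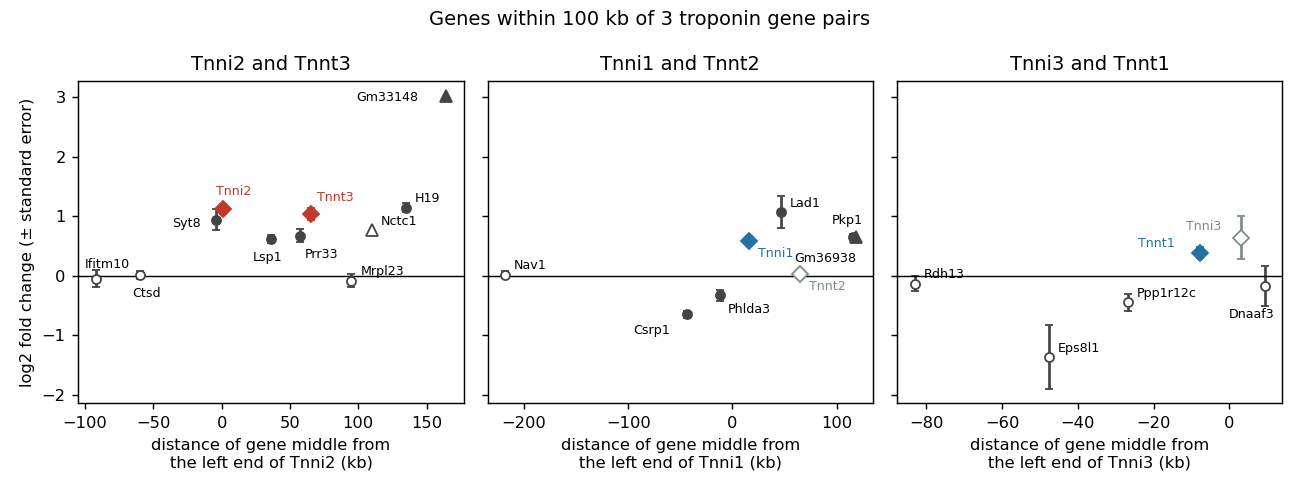
Log2 fold change with its standard error (edgeR, 3 libraries per group) of the tested genes within 100 kb of each troponin gene pair, against the distance in kb from the left end of the troponin I gene. Diamonds are troponin genes and circles their neighbors, filled where the adjusted p is under 0.05, and triangles are lower bounds for genes at or under 12 counts in every control library. Beside Tnni2 and Tnnt3, 5 neighbors are filled above 0 while Mrpl23, Ctsd and Ifitm10 lie near 0, and beside Tnni1 and Tnnt2 filled neighbors lie on both sides of 0.

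Promoters are shown to set members that did not pass the test, Tnnt2 and Tnnc1, beside members that rose, Tnni1 and Tnnc2. Each line gives the 200 bases before the annotated start on GRCm38.p6 from RefSeq, 5′ to 3′ along the gene, with the E-box CAGCTG and the MCAT box CATTCC (or its reverse complement GGAATG) in capitals. These starts can differ from the ends of the deposited gene spans. The first start of Tnni1, at base 135799421, lies inside its span, which begins at base 135779434.
Tnnt2 (chr1:135836134-135836333, plus strand): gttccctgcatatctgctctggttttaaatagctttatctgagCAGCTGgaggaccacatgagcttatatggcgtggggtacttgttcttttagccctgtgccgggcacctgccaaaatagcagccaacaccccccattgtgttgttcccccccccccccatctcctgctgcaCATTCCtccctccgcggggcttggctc
Tnni1 (chr1:135799221-135799420, plus strand): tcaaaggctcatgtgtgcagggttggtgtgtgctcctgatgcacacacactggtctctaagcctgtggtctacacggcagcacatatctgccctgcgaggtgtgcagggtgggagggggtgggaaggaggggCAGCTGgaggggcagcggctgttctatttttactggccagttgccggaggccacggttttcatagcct
Tnnc1 (chr14:31208112-31208311, plus strand): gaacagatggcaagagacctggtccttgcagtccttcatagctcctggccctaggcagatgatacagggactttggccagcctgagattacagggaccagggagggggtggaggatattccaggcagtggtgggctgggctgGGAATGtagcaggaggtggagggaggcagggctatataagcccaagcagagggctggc
Tnnc2 (chr2:164779735-164779934, minus strand): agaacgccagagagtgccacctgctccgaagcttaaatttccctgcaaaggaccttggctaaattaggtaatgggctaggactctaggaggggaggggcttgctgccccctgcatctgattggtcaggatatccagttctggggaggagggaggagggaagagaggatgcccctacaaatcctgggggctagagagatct
Both strands were searched over the 250 bases before the start. In Tnnt2, CAGCTG stood 223 and 157 bases and CATTCC 27 bases before the first of its annotated starts. In Tnni1, CAGCTG stood 68 bases before the first start, and in Tnnc1 the reverse MCAT box stood 58 bases before the start. Tnnc2 held neither, and its matches to the general E-box CANNTG, which contains CAGCTG as a special case, were 183 and 88 bases before the start. Tnnt1 held a TATAAA 30 bases and Tnni3 a CANNTG 19 bases before the start. CANNTG also matched at 1 place in Tnnt1 and 2 in Tnnc1. Before the first starts of Tnnt2 and Tnni1 it matched at 4 places each, CAGCTG included. Among 32851 RefSeq promoters of the same length, 13% held CAGCTG, 66.2% CANNTG, 12.6% CATTCC and 12.4% TATAAA. The MEF2 site and the CArG box, present in 2.92% and 1.47% of promoters, matched in none of the windows of these 6 genes. The promoters of Tnni2 and Tnnt3 were not analysed here. A match describes the letters only.

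Among other genes of the thin filament, 7 of 14 tested genes rose and 2 fell, against 13.2% and 15.5% of all tested genes, with a median log2 fold change of 0.36. Lmod3, which nucleates actin filaments, rose by 1.39 and nebulin (Neb), the ruler protein of the thin filament, by 1.17 on the log2 scale, while Nebl, a shorter nebulin relative, had 0, 0 and 8 counts in the controls and between 39 and 77 counts in the miR-322/-503 libraries, at least 4.47-fold higher. The size for Neb depended on the scale, with means of 168 and 380 CPM but 40.6 and 49.1 TPM in the control and miR-322/-503 groups. Skeletal actin Acta1, the partner to which the troponin complex is bound through tropomyosin, had 1300 ± 137 and 1386 ± 63.1 CPM (SD, n = 3 each) and did not pass the test (log2 fold change 0.09, adjusted p = 0.465).

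The gain of the fast troponin genes was not shared by every fast fiber gene. The shares of all tested genes that rose and fell, 13.2% and 15.5%, are the background for each of the following counts, and the cardiac and embryonic counts of 1 gene in each direction lie near it. Of 9 tested fast fiber genes other than troponins, 3 rose and 3 fell (median log2 fold change 0.16), with the fast myosin light chain gene Myl1 higher by 1.86 and the fast myosin heavy chain genes Myh2 and Myh1 lower at -2.88 and -1.43 on the log2 scale. Of 11 slow fiber genes, 4 rose and 2 fell (median 0.23), with Myoz2 at 1.37, the calcium store protein gene Casq2 at 1.18 and the myoglobin gene Mb at -0.90. Of 7 cardiac genes, 1 rose and 1 fell (median -0.06), namely Nppb (0.86) and Nkx2-5 (-2.07). Of 5 embryonic muscle genes, the fetal acetylcholine receptor subunit Chrng rose (0.50) and Ncam1 fell (-0.40), with a median of -0.05.

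**Figure D5:**
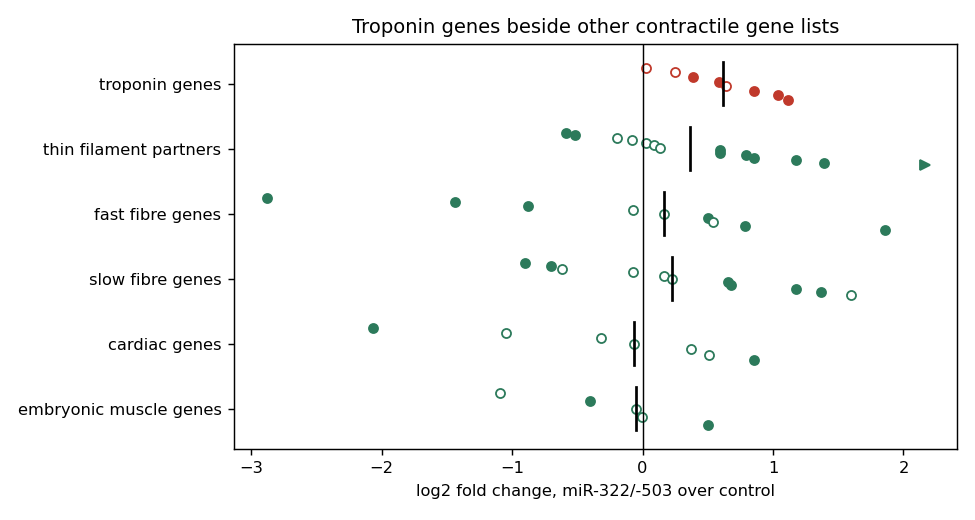
Log2 fold change, miR-322/-503 over control, of the 8 troponin genes and of the tested members of 5 other gene lists (3 libraries per group), with filled points for an adjusted p under 0.05, a black bar at the median and a triangle for Nebl at its lower bound. The troponin points all lie above 0 with a median of 0.62, while each other list has members on both sides of 0.

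Transcription factors and cofactors that act on muscle genes were also followed, and 7 of 17 rose and 4 fell, against the same 13.2% and 15.5% (median log2 fold change 0.32). Vgll2, a muscle cofactor of TEAD factors, which bind the MCAT box, rose from 0.188 ± 0.0834 to 26.6 ± 4.61 CPM (SD, n = 3 each), a log2 fold change of 7.13, and Mef2c rose by 3.61 on the log2 scale. Prox1, a factor of slow fibers and heart, had 69, 112 and 137 counts in the controls and 0 in each miR-322/-503 library, at least 8.69-fold lower. Of 11 splicing regulators that act on troponin T and other muscle exons, 3 rose and 2 fell against the same background (median 0.08), with Mbnl3 (0.92) higher and Rbm24 (-0.87) and Ptbp1 (-0.38) lower on the log2 scale. The tables give 1 value per gene, so the exon choice within Tnnt1, Tnnt2 and Tnnt3 was not analysed here.

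By profile over the 6 libraries, Tnnt3 and Tnni2 were close to each other. The distance used includes the difference between the groups. The closeness therefore partly restates their similar log2 fold changes of 1.04 and 1.12. The Euclidean distance between their centred log2 CPM profiles was 0.149, no other gene among 18132 was nearer to Tnnt3, and 1 was nearer to Tnni2. The 2 nearest genes outside the troponins were Adssl1 and Gm35019 for Tnnt3, Zfp697 and Xdh for Tnni2, Myl6b and Sh2b2 for Tnnc2, Ppp2r5b and Stom for Tnni1, BC051019 and Sirt5 for Tnnt1, Get4 and Eipr1 for Tnnc1, and Dennd5a and Bod1 for Tnnt2. Tnni3 was too low to be ranked. A ranking by Pearson correlation in place of the distance shared 0 of these 14 names, so the names depend on the measure.

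Markers of other states of the cells moved with the groups. The background for each count is 13.2% higher and 15.5% lower among all tested genes. Skeletal muscle markers were higher in 4 of 6 genes and lower in 1, with Des, the muscle intermediate filament gene, at 1149 ± 61.2 and 1800.2 ± 59.5 CPM (SD, n = 3 each). Markers of cycling myoblasts fell in 3 of 5 tested genes and rose in 1, from a summed 261 to 267 TPM down to 188 to 193 TPM, with the most abundant, Top2a, at -0.58 on the log2 scale. Fibroblast markers fell in 4 of 5 and rose in 1 (4332 to 4618 against 3075 to 3316 TPM, with the most abundant, Col3a1, at -0.74 on the log2 scale). Smooth muscle markers fell in 3 of 5 (6577 to 6837 against 2795 to 2927 TPM, with the most abundant, Acta2, at -1.11 on the log2 scale). Their part in the troponin differences was not tested.

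The remaining marker lists were low. Each had at most 1 gene called in a direction, too few to set apart from the 13.2% higher and 15.5% lower of all tested genes. Cardiomyocyte markers other than troponins summed to 9.34 to 10.2 against 7.03 to 7.97 TPM (1 of 3 lower), with Gata4 as the most abundant and Tbx5 at 0 in every library. Osteoblast and chondrocyte markers summed to 53.8 to 55.2 against 55.0 to 64.0 TPM (1 of 4 higher, 1 lower), with Sox9 as the most abundant. Adipocyte markers reached 11.4 to 13.1 against 9.60 to 11.7 TPM (1 of 2 lower, Pparg most abundant, Adipoq and Fabp4 at 0 in every library), macrophage markers 3.28 to 5.74 against 5.71 to 6.49 TPM (0 of 2 called, Cd68 most abundant, Adgre1 at 0) and endothelial markers 0.423 to 0.524 against 1.58 to 2.35 TPM (Tek higher, the only one tested).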

How the data were processed

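Libraries of total RNA from 3 control and 3 miR-322/-503 samples were sequenced. The authors used Trim Galore for trimming, HISAT2 for alignment (GRCm38) and StringTie for quantification. Versions, gene annotation and strandedness are not given in the sources used here. The deposited count table holds StringTie's estimated counts per gene as whole numbers that the authors did not normalize, in which about 4 counts stand for 1 read pair, so counting precision is overstated. The deposited library tables hold per-base coverage (signal) beside FPKM and TPM from StringTie, and of these the authors' TPM served for shares, sums and ranks.

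Counts were tested with edgeR 4.0.16 in R 4.3.3 (filterByExpr, TMM, glmQLFit, glmQLFTest, Benjamini-Hochberg adjustment over 18140 genes), called at an adjusted p under 0.05. TMM factors lay between 0.977 and 1.03. DESeq2 1.42.0 (used by the authors) and limma 3.58.1 were alternatives. The procedure was tested on simulated data. Shares, sums and ratios were compared by exact two-sided permutation over libraries. No pair of replicates was a copy, since chi-square over degrees of freedom ran from 13.5 to 19.5. Neither labels nor tables name a batch.

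The members and lists were chosen with earlier results of these data known. Named genes are the troponin genes, up to 3 called members with the largest absolute log2 fold change per list, the most abundant marker per cell type, called neighbors within 100 kb, and the 2 nearest profiles per troponin gene with a mean of at least 1 CPM. Acta1, Ube2c, Mir322, Mir503, Myog as a marker and markers listed at 0 were named outside this rule. Sequences and GENCODE M21 transcripts came from reference tables, and protein sequences were not analysed here. Intervals and floors cover counting error only.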

Additional observations from a re-analysis of the deposited data

How the results depend on the processing

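The log2 fold changes of Tnni2, Tnnt3, Tnnc2 and Tnni1 stayed called under the 15 alternatives that test a log2 fold change against 0 (0.96 to 1.16 for Tnnt3, 1.07 to 1.20 for Tnni2). The count of 5 troponin genes called higher became 0 when edgeR's glmTreat asked for a log2 fold change beyond 1, 2 with the log2 fold change cut of 1 added to the adjusted p, and 4 to 5 on leaving out 1 library. Over all genes, glmTreat left 396 higher and 530 lower, the cut of 1 left 832 and 959, and leaving out 1 library gave 1792 to 2056 and 2217 to 2491. Under the cut of 1, the higher and lower counts were 3 and 0 for the thin filament list and 1 and 2 for fast fiber genes. They were 2 and 0 for slow fiber genes, 0 and 1 for cardiac genes and 0 and 0 for embryonic genes. Transcription factors had 2 and 2, splicing regulators 0 and 0, and neighbors within 100 kb 4 and 1. DESeq2 called 2 embryonic genes lower. The count of 4 slow fiber genes called higher became 3 with DESeq2, with the replicate number as a block and on leaving out any 1 library. On leaving out 1 library, the counts ran from 1 to 2 for slow fiber genes lower, from 0 to 1 for cardiac genes higher, from 1 to 2 for embryonic genes lower, and from 1 to 2 for splicing regulators higher and lower alike. Tnnt2 turned to -0.028 without control replicate 3 (range -0.028 to 0.083), the log2 ratio of Tnni1 to Tnni3 to 0.13 without control replicate 1 (-0.57 to 0.13) and the share of Tnni3 to 0.0401 percentage points without control replicate 2 (-0.133 to 0.0401). None of these was called, and the cause was not tested. Without a library, the smallest exact p for shares and sums is 0.2. Tnnc1 was called with the replicate number as a block (0.26, adjusted p = 0.0368) and with counts divided by 4 (adjusted p = 0.0455).

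The replicate block gave 6 troponin genes higher and 2667 higher and 3066 lower over all genes. Deviations of same-numbered libraries correlated at 0.131, 0.0687 and 0.0451, and each library matched its own number best, which is a hint from the data and not the design. Among the troponin genes Tnni3 had the lowest depth, with 31 to 102 counts. Counts per annotated transcript length were added as an alternative for shares and sums after the data were seen, and no direction of a share or sum changed with it.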
